A study of Mus musculus with 6 samples.

Results

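The genes described here encode 3 families of potassium channels that hold a neuron back between and after spikes: the KCNQ genes Kcnq3 and Kcnq5, the small-conductance calcium-activated (SK) genes Kcnn1, Kcnn2 and Kcnn3, and the large-conductance calcium-activated (BK) genes Kcnma1 and Kcnmb4. They were taken by gene name, 7 of the 55414 genes in the deposited table, and each name occurred once. The libraries came from the medial mammillary nucleus, a cell group of the posterior hypothalamus, of male mice. Fluorescent neurons were drawn by glass electrode from slices digested with papain for 30 min. One group of 3 libraries has the genotype label PV-positive (parvalbumin, a calcium-binding protein; replicates 6, 7 and 8) and the other group of 3 has the label Drd2-positive (the D2 dopamine receptor; replicates 1, 2 and 3), and values are listed in this order of replicates throughout. The sources used here do not give the mouse lines that made these cells fluorescent, the age of the mice or the number of cells or mice per library, so p-values measure only the spread between these libraries, which may be technical.

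KCNQ subunits form the slow, non-inactivating M-current, which opens near the resting potential, is closed when Gq-coupled muscarinic receptors deplete the membrane lipid PIP2, and limits repetitive firing. SK channels carry calmodulin as their calcium sensor, open when calcium enters during a spike and produce the medium afterhyperpolarization that spaces spikes. BK channels need both depolarization and calcium, help to repolarize the spike and give the fast afterhyperpolarization. Kcnma1 encodes their pore-forming subunit and Kcnmb4 the beta subunit best known from neurons.

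The values are FPKM, fragments scaled to gene length and library size. Levels are set side by side between genes on this scale, and whether it holds evenly for genes of different length was not tested. The FPKM denominators were 23.8 to 33.7 (in units of 1000000 fragments), and 1 read in a member gene was worth 0.00175 to 0.0126 FPKM. Genes at 1 FPKM or more numbered 8610 in PV replicate 7, the fewest, and 12398 in PV replicate 6, the most. As a check of the labels, the PV libraries held 349, 482 and 563 FPKM of Pvalb and the Drd2 libraries 10.4, 22.5 and 99.5. The Drd2 libraries held 42.7, 55.0 and 7.74 FPKM of Drd2, PV replicate 6 held 0.0132, and the gene was listed at 0 in the remaining PV libraries. Every one of 7 neuron markers was above 0 in every library, and their sum was 1409 to 1538 FPKM in PV and 1161 to 1373 in Drd2, without overlap. Its members went different ways. Snap25 was at 751 to 1109 FPKM in PV and 202 to 503 in Drd2, Tubb3 was at 61.7 to 311 and 428 to 563, and the rest overlapped. The glutamate transporter Slc17a6 was at 108 to 144 FPKM in all 6.

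Other RNA moved with the groups as well. The 4 haemoglobin genes summed to 743 to 3203 FPKM in PV and to 0 to 11.5 in Drd2, with all 4 at 0 in Drd2 replicate 3. Markers of oligodendrocyte precursors, 6 genes, summed to 10.7 to 24.8 FPKM in PV and 1.67 to 4.35 in Drd2. A different gene led this sum in each PV library: C1ql1 in replicate 6 (14.2 FPKM), Lhfpl3 in replicate 7 (10.6) and Neu4 in replicate 8 (16.7). Pdgfra was above 0 only in PV replicate 6 (1.13) and Drd2 replicate 3 (0.163), and Gpr17 only in PV replicate 6. Mitochondrial genes made up 9.62% to 31.3% of the FPKM total in PV and 3.74% to 5.20% in Drd2. The sums of microglial (11 genes), oligodendrocyte (10), astrocyte (9), GABAergic (4) and vascular (8) markers overlapped between the groups; microglial markers ranged from 456 to 1410 FPKM in PV and from 23.9 to 3703 in Drd2. The part of any of these in the differences below was not tested, and fewer cells of a type cannot be told apart from less RNA per cell in such libraries.

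Among the 7 genes, Kcnn3 and Kcnq5 were lower in every PV library than in every Drd2 library, Kcnma1 was present in all 6 with overlapping groups, and Kcnmb4 was close to 0 throughout. None of the 5 genes that could be tested passed. PV was compared with Drd2 by limma on log2(FPKM + 1), with p-values adjusted by Benjamini-Hochberg over the 11478 genes that reached 1 FPKM in at least 3 libraries, of which 0.261% were called at an adjusted p under 0.05. Of the 7 genes 5 were in the test and 0 of these 5 were called by limma; 1, Kcnn3, had an unadjusted p under 0.05, as did 12.8% of all tested genes. With limma voom on recovered reads 0 of 5 were called too. Groups did not overlap, with PV lower, for 2 of the 5 tested genes and for 13.1% of all tested genes, and Kcnn3 entered the test through its Drd2 values alone, so it had to differ. Kcnq3, with 2 libraries at 1 FPKM or more, and Kcnmb4, with 0, fell under the filter.

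**Figure D1:**
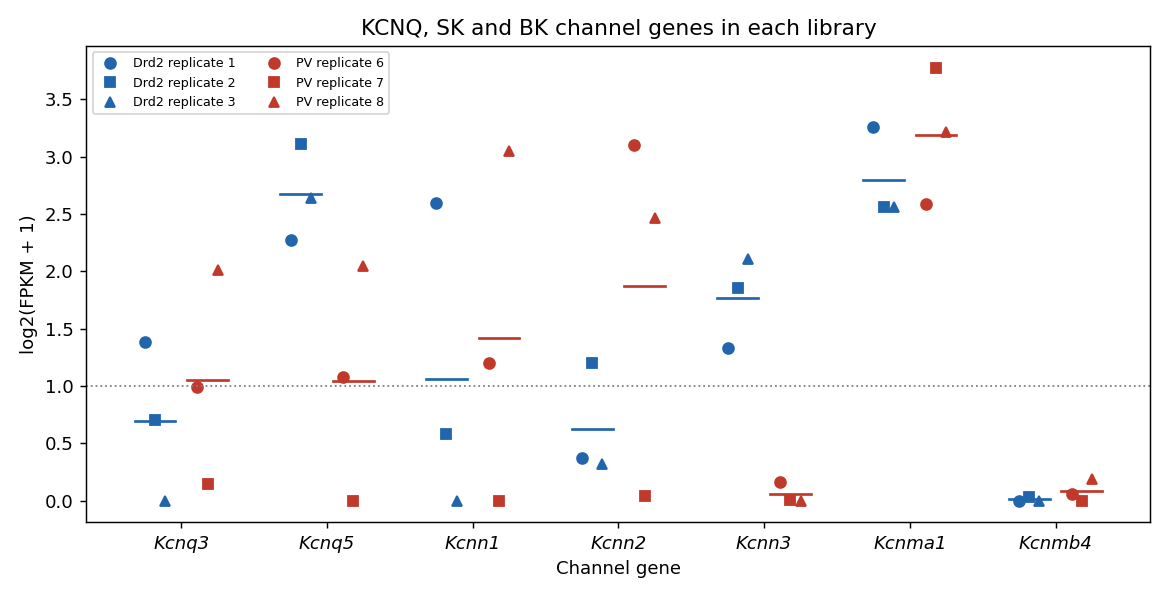
Level of each gene in each library, as log2(FPKM + 1) on the vertical axis; blue marks are Drd2 libraries, red marks PV libraries, short bars are group means and the dotted line is 1 FPKM. Kcnq5 and Kcnn3 are the genes whose red marks all lie below the blue ones, and PV replicate 7 (red squares) is near 0 for every gene but Kcnma1.

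The sequences just before the annotated starts are shown for 3 of the genes, taken by the position of the start and not by their levels. They are the 250 bases before the start on the gene's own strand (Kcnn3 on the plus strand, Kcnq5 and Kcnn1 on the minus strand). All are from RefSeq on GRCm38.p6, 5′ to 3′, with each CpG dinucleotide in capitals. RefSeq windows were found for 5 of the 7 genes. Of the genes compared, the 3 shown are those whose start is also the gene's 5′ end in GENCODE M21. Kcnn2 was left out before starts were compared, so its absence here says nothing about its start.
Kcnn3, chr3:89519914-89520163: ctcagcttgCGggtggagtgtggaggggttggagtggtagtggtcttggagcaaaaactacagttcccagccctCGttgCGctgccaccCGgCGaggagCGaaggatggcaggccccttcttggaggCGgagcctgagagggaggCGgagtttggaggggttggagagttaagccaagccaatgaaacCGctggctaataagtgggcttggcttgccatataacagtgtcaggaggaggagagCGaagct
Kcnq5, chr1:21961943-21962192: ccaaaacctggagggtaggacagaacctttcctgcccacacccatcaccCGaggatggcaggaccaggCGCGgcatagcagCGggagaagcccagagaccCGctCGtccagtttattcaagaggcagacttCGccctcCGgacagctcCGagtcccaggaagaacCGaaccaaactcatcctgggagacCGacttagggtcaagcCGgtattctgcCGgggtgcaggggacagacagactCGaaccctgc
Kcnn1, chr8:70863259-70863508: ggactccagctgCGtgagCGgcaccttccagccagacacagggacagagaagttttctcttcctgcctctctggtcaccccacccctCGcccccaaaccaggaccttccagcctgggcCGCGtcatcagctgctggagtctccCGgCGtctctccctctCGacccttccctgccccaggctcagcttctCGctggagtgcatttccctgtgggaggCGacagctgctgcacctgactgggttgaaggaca
All 3 windows were rich in G and C, at 58.8% for Kcnn3, 60.8% for Kcnq5 and 63.6% for Kcnn1, where the median of 32817 such windows was 52.4%. They held 10, 14 and 10 CpG dinucleotides, against a median of 6. Letters were searched on both strands. TATAAA, present in 12.4% of all windows, and the GC box GGGCGG, present in 32.7%, occurred in none of the 3. CCAAT, present in 33.8% of windows, occurred once in Kcnn3, 72 bases before the start. The E-box CANNTG, present in 66.2%, occurred at 4 places in Kcnn1 and in neither Kcnn3 nor Kcnq5, and TGACG, present in 17.7%, occurred once in Kcnn1. Gene-level FPKM do not show which start was used.

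The KCNQ genes differed from each other in how they sorted with the groups. Kcnq5 (ENSMUSG00000028033, mm10 chromosome 1, 21398403 to 21961942), a subunit that forms M-type channels alone or with Kcnq3, reached 3.84, 7.64 and 5.23 FPKM in the Drd2 libraries. The PV libraries held 1.11, 0 and 3.14 FPKM. All PV libraries were below all Drd2 libraries, although PV replicate 8 lay close to Drd2 replicate 1. In recovered reads the Drd2 libraries had 997, 1764 and 959 and the PV libraries 254, 0 and 684. PV averaged 1.42 ± 1.59 FPKM and Drd2 5.57 ± 1.92 (SD, n = 3 each). The log2 fold change from Drd2 to PV was -1.63 ± 0.73 (SE; 95% interval -3.27 to 0.0047), and the adjusted p by limma was 0.393. The fold was below 0 in all 18 settings tried. It was -0.73 with 5 FPKM added before the log, -2.90 with 0.1 FPKM added, -4.70 by voom on recovered reads and -1.11 without PV replicate 7.

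Kcnq3 (ENSMUSG00000056258, chromosome 15, 65986387 to 66286642) encodes a subunit that assembles with other KCNQ subunits into M-channels. The Drd2 libraries held 1.60, 0.623 and 0 FPKM and the PV libraries 0.992, 0.108 and 3.02. The highest and the next highest library were of different groups, and the groups overlapped. With no filter on low values its log2 fold was 0.36 ± 0.76 (SE), with an adjusted p of 0.841 by limma. Kcnq1, the KCNQ gene of heart and epithelia, was listed at 0 in all 6 libraries.

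In every PV library Kcnq3 made up a larger part of the Kcnq3 and Kcnq5 total than in any Drd2 library. Its share of their summed FPKM in the Drd2 libraries was 29.4%, 7.54% and 0%. The PV libraries gave 47.2%, 100% and 49.1%. PV averaged 65.4% ± 30.0 and Drd2 12.3% ± 15.3 (SD, n = 3 each), without overlap. The difference of 53.1 percentage points had an exact permutation p of 0.1, 2-sided, the smallest that 3 against 3 allows (0.2 adjusted over the 6 shares and ratios compared). The share in PV replicate 7 rests on 44 reads, all of Kcnq3; without that library the difference was 35.8 points.

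The SK genes showed 3 different patterns. Kcnn3 (ENSMUSG00000000794, chromosome 3, 89520164 to 89675132), the SK subunit known for its part in regular pacemaking of midbrain dopamine neurons, reached 1.51, 2.61 and 3.32 FPKM in the Drd2 libraries. The PV libraries held 0.122, 0.00346 and 0 FPKM. In recovered reads this was 532, 820 and 827 against 38, 1 and 0, and a count of 0 in PV replicate 8 allows up to 0.0101 FPKM (3 reads). All PV libraries lay far below the lowest Drd2 library. PV averaged 0.0418 ± 0.0694 FPKM and Drd2 2.48 ± 0.913 (SD, n = 3 each). The log2 fold was -1.71 ± 0.51 (SE; 95% interval -2.85 to -0.56), with an unadjusted p of 0.00804 and an adjusted p of 0.202 by limma. Adding 1 FPKM before the log shrinks the fold of a gene at this level: with 0.1 FPKM added it was -4.22 (limma adjusted p = 0.253) and by voom on recovered reads -7.75 (limma adjusted p = 0.213). Over 18 settings the fold was below 0 in all and the adjusted p ran from 0.182 to 0.649.

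Kcnn2 (ENSMUSG00000054477, chromosome 18, 45268860 to 45686024), the SK subunit of the afterhyperpolarization in many forebrain and cerebellar neurons, reached 7.60, 0.0290 and 4.51 FPKM in the PV libraries. The Drd2 libraries held 0.290, 1.29 and 0.247 FPKM. PV replicates 6 and 8 were above every Drd2 library and PV replicate 7, with 6 reads, was below them all. PV averaged 4.04 ± 3.80 FPKM and Drd2 0.610 ± 0.592 (SD, n = 3 each). The log2 fold was 1.24 ± 0.83 (SE), with an adjusted p of 0.563 by limma. Without PV replicate 7 the fold was 2.15 (limma adjusted p = 0.262), and without PV replicate 6 it was 0.62 (limma adjusted p = 0.742). Over 18 settings it ran from 0.60 to 2.15.

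Kcnn1 (ENSMUSG00000002908, chromosome 8, 70842049 to 70863258), the remaining neuronal SK subunit, spread widely in both groups. The PV libraries held 1.30, 0 and 7.29 FPKM and the Drd2 libraries 5.05, 0.494 and 0. Each group thus had 1 high library and 1 at 0. The log2 fold was 0.36 ± 0.94 (SE), with an adjusted p of 0.900 by limma, and it was -0.46 without PV replicate 8 and -0.17 without Drd2 replicate 3.

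**Figure D2:**
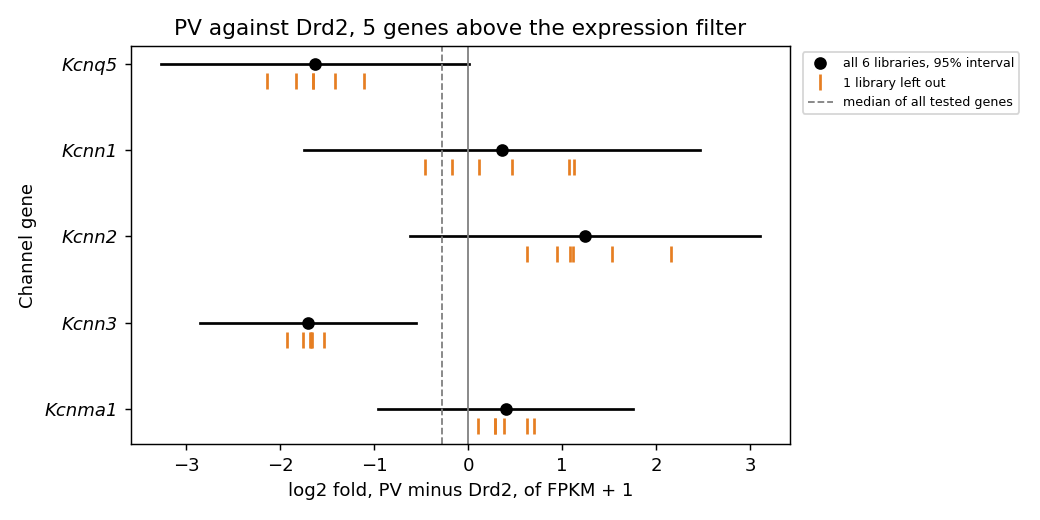
Log2 fold, PV minus Drd2, of the 5 genes above the expression filter (horizontal axis); points and lines are the limma estimate and its 95% interval with all 6 libraries, orange ticks the estimate with 1 library left out, and the dashed line the median of all tested genes, -0.28. Only the interval of Kcnn3 lies wholly below 0, and the ticks of Kcnn1 fall on both sides of 0.

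The summed SK level overlapped between the classes, at 9.02, 0.0325 and 11.8 FPKM for PV against 6.85, 4.40 and 3.57 for Drd2. Its makeup did not overlap for Kcnn3 and Kcnn2. Kcnn3 made up 22.0%, 59.4% and 93.1% of the SK total in the Drd2 libraries, and 1.35%, 10.6% and 0% in the PV libraries. This difference, PV minus Drd2, was -54.2 percentage points (exact permutation p = 0.1, 2-sided; 0.2 adjusted). Kcnn2 made up 84.2%, 89.4% and 38.2% in the PV libraries, and 4.23%, 29.4% and 6.93% in the Drd2 libraries. Here the difference was 57.1 points (exact permutation p = 0.1, 2-sided; 0.2 adjusted). Kcnn1 took the rest, from 0% to 73.8% in Drd2 and 0% to 61.8% in PV, with overlap (exact permutation p = 1). With 0.1 FPKM added to each gene the Kcnn3 shares overlapped (difference -44.8 points, exact permutation p = 0.2, 2-sided). The SK total of PV replicate 7 was 7 reads. Without it the differences were -57.5 points for Kcnn3 and 47.7 points for Kcnn2. Neither share depends on how a library's total is scaled.

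**Figure D3:**
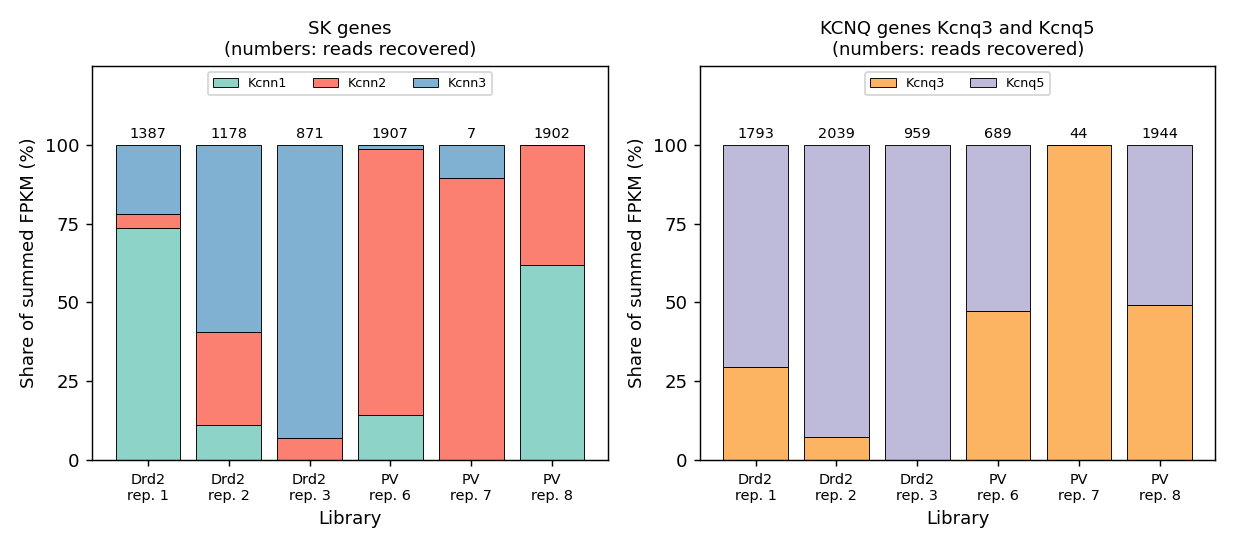
Share of summed FPKM (vertical axis, %) taken by Kcnn1, Kcnn2 and Kcnn3 (left) and by Kcnq3 and Kcnq5 (right) in each library, with the recovered reads behind each bar printed above it. Kcnn3 is the smallest or a missing part in PV replicates 6 and 8, and the bars of PV replicate 7 rest on 7 and 44 reads.

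Kcnma1 (ENSMUSG00000063142, chromosome 14, 23289431 to 24014491), the BK pore, was the one gene of the 7 at 1 FPKM or more in all 6 libraries. The PV libraries held 4.99, 12.7 and 8.28 FPKM and the Drd2 libraries 8.57, 4.91 and 4.90. The groups overlapped. PV averaged 8.66 ± 3.87 FPKM and Drd2 6.13 ± 2.12 (SD, n = 3 each). The log2 fold was 0.40 ± 0.61 (SE; 95% interval -0.96 to 1.76), with an adjusted p of 0.824 by limma. PV replicate 7 held the most Kcnma1, 5969 reads, and there it made up 98.9% of the summed FPKM of the 7 genes. In the other 5 libraries it made up 27.9% to 41.1%. The fold was 0.70 without PV replicate 6, 0.63 without Drd2 replicate 1, 0.10 without PV replicate 7, and -0.013 without that library and Drd2 replicate 3.

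Kcnmb4 (ENSMUSG00000054934, chromosome 10, 116417861 to 116473878) was close to undetected beside its pore-forming partner. The PV libraries held 0.0404, 0 and 0.138 FPKM and the Drd2 libraries 0, 0.0200 and 0. The values above 0 are 4, 13 and 2 reads, and a count of 0 allows up to 0.0267 to 0.0379 FPKM (3 reads) in the libraries concerned. Its level was 0% to 1.67% of that of Kcnma1 (exact permutation p = 0.4 between the groups; 0.6 adjusted). The other BK beta genes were no higher in most libraries: Kcnmb1, the smooth-muscle form, was listed at 0 in all 6, Kcnmb2 was at 1.25 FPKM in PV replicate 7 and at 0 elsewhere, and Kcnmb3 was at 0.587 FPKM in Drd2 replicate 3 and at 0 elsewhere. Lrrc55, which encodes a gamma subunit of BK channels, reached 9.40, 11.4 and 5.09 FPKM in the Drd2 libraries, and 1.34, 0.720 and 0.398 in the PV libraries. Its groups did not overlap, with a log2 fold of -2.38 ± 0.65 (SE), and it did not pass (limma adjusted p = 0.179).

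In the order of mean level the classes put Kcnma1 first and differed after it. In Drd2 the order was Kcnma1, Kcnq5, Kcnn3, Kcnn1, Kcnq3, Kcnn2 and Kcnmb4, and the neighbours whose values did not overlap were Kcnq5 and Kcnn3, and Kcnn2 and Kcnmb4. Kcnq5 was above Kcnma1 in Drd2 replicates 2 and 3, so their order did not separate. In PV the order was Kcnma1, Kcnn2, Kcnn1, Kcnq5, Kcnq3, Kcnmb4 and Kcnn3, and every pair of neighbours overlapped. Kcnn3 was the last in PV by its mean, although Kcnmb4 was above it only in PV replicate 8.

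Across the 6 libraries, pairs of these genes varied together to different degrees. Kcnq3 and Kcnn1 had a Pearson r of 0.97 on log2(FPKM + 1), and 0.98 for the deviations from the group means: both were highest in PV replicate 8, next in Drd2 replicate 1, and at or near 0 in PV replicate 7 and Drd2 replicate 3. Kcnn3 and Kcnq5 had an r of 0.80, which fell to 0.22 for the deviations from the group means. These are descriptions of 6 points that share library quality and number of detected genes, with no test.

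**Figure D4:**
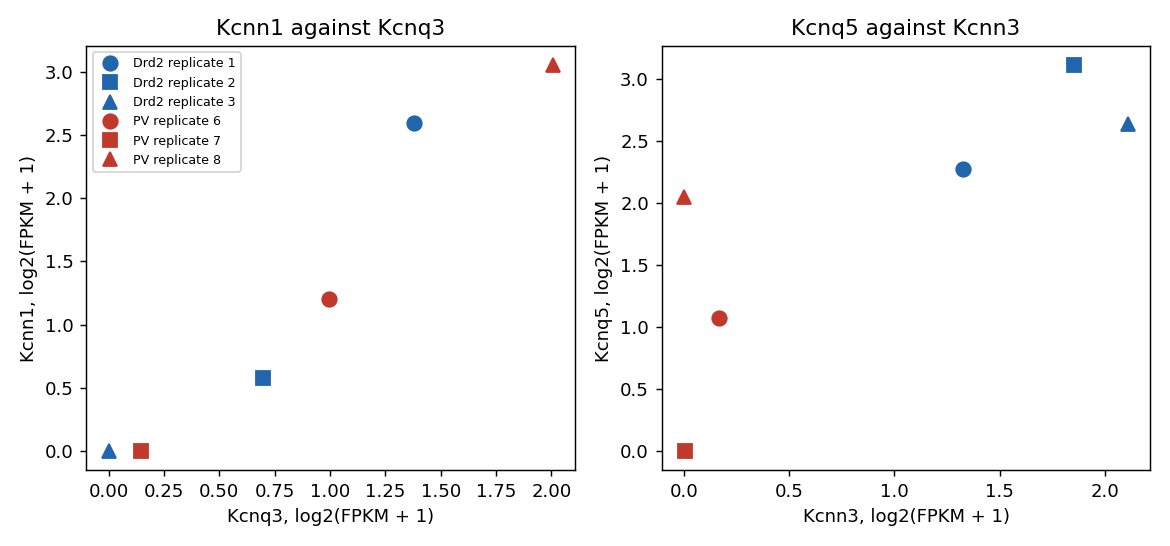
Each library's log2(FPKM + 1) of Kcnn1 against Kcnq3 (left) and of Kcnq5 against Kcnn3 (right); blue marks are Drd2 and red marks PV libraries. On the left both colours lie along one line, and on the right the colours form separate groups.

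The genes most like each member over the 6 libraries, among 6233 tested genes with a mean of at least 5 FPKM, were found by Pearson r on the same scale. They were Dnm3, Aars and Sanbr for Kcnq3 (r = 0.99, 0.98 and 0.98), Terf2ip, Pnck and Arfrp1 for Kcnq5 (0.99, 0.99 and 0.99), Aars, Abcf1 and Phb for Kcnn1 (0.99, 0.99 and 0.99) and Vhl, Usp20 and Ndrg4 for Kcnn2 (0.99, 0.99 and 0.97). For Kcnn3 they were H2-Q2, Actg1 and Ube2j2 (1.00, 1.00 and 0.99), for Kcnma1 Selenok, Sap18 and Ndufa6 (1.00, 0.99 and 0.99) and for Kcnmb4 Mapk10, Zmym5 and Nat8l (0.99, 0.98 and 0.98). Aars, an alanyl-tRNA synthetase, was on the lists of both Kcnq3 and Kcnn1. With 6 libraries many genes come this close: 54 reached an r of 0.95 with Kcnq5 and 4 with Kcnn2, and 27 genes had the rank order of Kcnq5 exactly. Among the genes named here, rank correlation (Spearman rho) was lowest for Selenok and Sap18 with Kcnma1, at 0.77 each. Kcnmb4 had at most 13 reads in any library, so its r values rest on few reads.

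Related channel genes, partners of the channels, and genes of the Gq and PIP2 route and of calcium entry and release are given as 4 lists. In these, limma and voom called no gene. Among all tested genes 12.8% had an unadjusted p under 0.05 by limma, and 13.1% were lower in every PV library than in every Drd2 library. The share that was higher in every PV library is not reported here, so Plcb4 and Grin2a below have no such share beside them. Of 19 relatives in the same families (other KCNQ, KCNE, SK, BK and sodium-activated potassium channel genes), 3 were tested and 0 passed (1 at an unadjusted p under 0.05), with 1 fold above 0 and 2 below; 6 were listed at 0 in every library. Among the tested ones were Lrrc55 and Kcnt1, a sodium-activated potassium channel, the latter at 7.73 ± 7.42 FPKM (PV) and 8.80 ± 4.38 FPKM (Drd2; SD, n = 3 each). Of 16 partners that bind or modify the channels, 15 were tested and 0 passed (2 unadjusted), with 10 folds above 0 and 5 below and a median log2 fold of 0.19, where the median of all tested genes was -0.28. Ppp2r1a, the scaffold of protein phosphatase 2A, which dephosphorylates SK-bound calmodulin, averaged 81.9 ± 46.2 FPKM in PV and 271 ± 36.8 in Drd2 (log2 fold -1.90 ± 0.50, SE; adjusted p = 0.158 by limma). Of the catalytic subunits of this phosphatase, Ppp2cb was at 12.5 ± 5.49 against 36.2 ± 10.9 FPKM (log2 fold -1.49, adjusted p = 0.253 by limma). The more abundant Ppp2ca, named here after its values were seen, was at 71.2 ± 17.2 against 91.6 ± 11.3 FPKM with overlapping groups (log2 fold -0.38, adjusted p = 0.715 by limma).

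Of 21 genes of the Gq and PIP2 route that acts on M-channels, 12 were tested and 0 passed (2 unadjusted). There were 6 folds on each side of 0 and a median of -0.02. The muscarinic receptor gene Chrm3 reached 9.79, 6.43 and 11.4 FPKM in the Drd2 libraries, and 0.123, 0.0289 and 0.344 in the PV libraries. Its groups did not overlap, and its log2 fold of -3.11 ± 0.62 (SE) did not pass (limma adjusted p = 0.0720). Like Kcnn3 it entered the test through its Drd2 values alone. Plcb4, a phospholipase C that cleaves PIP2, averaged 45.3 ± 14.4 FPKM in PV against 14.1 ± 2.90 in Drd2 (SD, n = 3 each; log2 fold 1.59 ± 0.45, SE; limma adjusted p = 0.185), with no overlap. Chrm5, another muscarinic receptor gene, was at 3.04 ± 5.20 against 14.2 ± 11.9 FPKM with overlap.

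Of 17 genes for calcium entry and release, 12 were tested and 0 passed (3 unadjusted), with 5 folds above 0 and 7 below and a median of -0.37. The T-type calcium channel gene Cacna1g averaged 0.368 ± 0.429 FPKM in PV against 3.13 ± 1.39 in Drd2 (SD, n = 3 each), and the ryanodine receptor gene Ryr3, a calcium release channel, at 1.87 ± 0.622 against 6.81 ± 2.20. Grin2a, an NMDA receptor subunit through which calcium also enters, averaged 9.27 ± 3.90 FPKM in PV against 2.26 ± 0.477 in Drd2. Limma adjusted p was 0.292, 0.389 and 0.336 for these 3 genes, whose groups did not overlap. Cacna1g entered the test through its Drd2 values alone.

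The sources used here do not state whether the counting used strand, so reads of genes on the opposite strand cannot be told apart from those of the members. In GENCODE M21 exons of Kcnma1 overlap 4930519K11Rik over 1016 bases, those of Kcnn1 overlap A230052G05Rik over 132, those of Kcnn2 overlap A330093E20Rik over 284 and AC121957.1 over 323, and those of Kcnmb4 overlap Kcnmb4os1 and Kcnmb4os2. The highest value of these in any library was 1.11 FPKM, for A230052G05Rik, and both Kcnmb4 antisense genes were listed at 0 throughout. Exons of Kcnq5 overlap Gm26580 over 237 bases, and no exon of Kcnq3 or Kcnn3 overlaps an exon of another gene.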

How the data were processed

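RNA was measured in 6 libraries of aspirated neurons, 3 PV-positive and 3 Drd2-positive, grouped by their titles. The authors' deposited table gives FPKM for 55414 Ensembl genes of mouse, per the file headers one column per library. The submitters' processing notes name STAR and, as builds, mm10, hg38 and GRCh38; no quantifier is named there. Per the labels' protocols 1.3 ug of total RNA entered a SMARTer mRNA kit.

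Genes reaching 1 FPKM in 3 or more libraries were kept, and log2(FPKM + 1) was compared, PV minus Drd2, by limma 3.58.1 in R 4.3.3 with an intensity trend, 2-sided, Benjamini-Hochberg adjusted, threshold 0.05. The test was tested on simulated data. Shares within a library were compared by exact permutation of the libraries, 2-sided. The log2 ratio of Kcnmb4 to Kcnma1 was planned; since Kcnmb4 is listed at 0 in 3 libraries, a percentage was used. FPKM times GENCODE M21 exon length fell on whole multiples of 1 read: among values of 20 reads or fewer, 97.9% to 98.8% came out whole (tolerance 0.01 read; 2% by chance). Reads cover counting error only, since PCR copies are not independent molecules.

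Each member is named; of each list up to 3 tested genes with the smallest p are named, and for each member the 3 genes of highest r, leaving out predicted genes; a few genes that this rule takes are not reported here. Other genes named (Kcnq1, Ppp2ca, the Kcnmb genes) were chosen after their values were seen. The members, lists and tests were chosen with earlier results of these data known. Alternatives were other pseudocounts, filters, scalings, variance models, voom on recovered reads and leaving out libraries.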

Additional observations from a re-analysis of the deposited data

How the results depend on the processing

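No paired analysis was made because the sources used here state no pairing of the libraries. The count of the 7 genes called was 0 in all 18 alternatives. The count over all genes, 30, was 4 with a pseudocount of 0.1 FPKM, 68 with one of 5 FPKM, 0 with no filter on low values (1509 at an unadjusted limma p under 0.05), 76 with quantile normalization, 14 when rescaled over nuclear protein-coding genes, 46 without the trend, 105 with array weights, 18 without PV 7 and Drd2 3 together, and from 1 to 56 with 1 library left out (2, 3 and 1 without Drd2 replicates 1, 2 and 3, and 56 without PV replicate 6). Of these, quantile normalization gave 25 higher and 51 lower in PV, against 5 and 25. At least 5 FPKM in 3 libraries left only Kcnma1 of the 7 genes in the test.

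The folds of Kcnq5, Kcnn2 and Kcnn3 kept their sign in all alternatives in which they were tested. Kcnn1 ran from -0.46 (without PV replicate 8) to 1.13 with 1 library left out and was also below 0 without Drd2 replicate 3 (-0.17), and Kcnma1 turned to -0.013 without PV 7 and Drd2 3 together. The differences in the shares of Kcnq3, Kcnn2 and Kcnn3 and in the ratio of Kcnmb4 to Kcnma1 kept their sign in all 9 alternatives, with ranges of 29.7 to 62.2, 38.5 to 73.3, -72.2 to -36.7 and 0.135 to 1.10 percentage points. The difference in the Kcnn1 share, -2.91 points, was 6.31 with 0.1 FPKM added and ran from -21.1 to 19.8 with 1 library left out. That in the share of Kcnma1 among the 7 genes, 18.8 points, was -3.34 without PV 7 and Drd2 3 together and ran from -3.76 (without PV replicate 7) to 30.2. The causes were not tested. Kcnmb4 (at most 13 reads) and the SK and KCNQ shares of PV replicate 7 (7 and 44 reads) rest on few reads, and no permutation test of 3 against 3 can go below 0.1.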
